A study of Caenorhabditis elegans with 2 samples.

Results

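The 438 strongest binding sites of the zinc finger protein ZTF-22 that both replicates shared in young adult Caenorhabditis elegans are described here. They made up 46.0% of the optimal peaks, the regions that the authors kept after comparing the replicates. The other 514 optimal peaks are called the remaining peaks. The sites were selected by measured signal: an optimal peak was taken when its summit, the base of highest signal, lay within 100 bp of a summit among the strongest regions of replicate 1 and also of replicate 2. As many strongest regions were taken from each replicate as there were optimal peaks. All animals were of 1 strain, OP676, which carries the mutation unc-119(tm4063) and the array wgIs676. In this array ztf-22 is joined to TY1, EGFP and 3xFLAG tags, and unc-119(+) is carried along. They were young adults of mixed sex, 68 hours old, synchronised by L1 starvation after bleaching. Sonicated chromatin of whole animals was precipitated with an antibody to GFP, while another label gives ztf-22 as the antibody. There were 2 biological replicates of this 1 line and no second condition. The protein measured was therefore the tagged product of a transgene, the cells in which a site was bound cannot be told apart, and reads at the ztf-22 locus can come from the transgene as well as from the chromosome. The values are the authors' region lists, their read depth is unknown, and the signal value is in the units of their peak caller.

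ZTF-22 belongs to the zinc finger proteins, a broad class in which small zinc-binding folds contact DNA, and proteins of this class often act at promoters and enhancers. In chromatin immunoprecipitation followed by sequencing, fragments bound by a protein are recovered with an antibody, and positions with many fragments are called as peaks. Whole worms hold large amounts of chromatin from the germ line, intestine, hypodermis, muscle and neurons. Genes of all transcribing polymerases can carry such peaks, including genes of tRNAs, which RNA polymerase III transcribes from promoter elements inside the gene.

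The summit sequences below are examples of the shared sites. Some are among the strongest, and others were printed for the motifs that the later results turn on. Each runs from 50 bp before to 50 bp after the summit, on the + strand of ce11, read from the RefSeq genome of the same assembly. Capitals mark matches, on either strand, to the 7 motifs that were more frequent at the shared summits than in windows centred 250 bp away. These are the worm promoter word CTGCGTCTC, the site of GATA factors (TGATAA), the E-box (CACGTG), the B box inside tRNA genes (GTTCGANNC), the GC box (GGGCGGG), the repeat GAGAGAGA and the CG-rich word GCGCGC. The examples were chosen after their values were seen. The first lie upstream of the ribosomal protein gene rpl-3 and of tasp-1, between rpl-15 and K11H12.8, and beside sls-2.1, a gene for the SL2 spliced leader RNA. Among these, only the tasp-1 sequence carries any of the 7 motifs, and 221 of all 438 shared summits carry none.
rpl-3 (chrIII:3867521-3867621): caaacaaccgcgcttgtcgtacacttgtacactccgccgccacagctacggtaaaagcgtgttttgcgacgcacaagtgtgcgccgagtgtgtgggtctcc
tasp-1 (chrIII:10759201-10759301): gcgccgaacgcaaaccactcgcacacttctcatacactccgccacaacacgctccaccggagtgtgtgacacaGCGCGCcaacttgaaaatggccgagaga
rpl-15 (chrIV:654869-654969): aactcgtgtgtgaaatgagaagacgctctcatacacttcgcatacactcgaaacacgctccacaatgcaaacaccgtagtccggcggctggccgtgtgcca
sls-2.1 (chrII:5844784-5844884): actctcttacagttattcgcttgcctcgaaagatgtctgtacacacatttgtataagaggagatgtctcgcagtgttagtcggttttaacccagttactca
The next carry CTGCGTCTC. They lie upstream of sec-61.G, in an intron of epg-9, where the word occurs in 2 copies, and upstream of hsp-3, where GCGCGC also occurs.
sec-61.G (chrV:10897298-10897398): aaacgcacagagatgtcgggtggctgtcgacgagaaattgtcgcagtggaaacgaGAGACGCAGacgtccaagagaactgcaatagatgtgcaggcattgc
epg-9 (chrIV:2602106-2602206): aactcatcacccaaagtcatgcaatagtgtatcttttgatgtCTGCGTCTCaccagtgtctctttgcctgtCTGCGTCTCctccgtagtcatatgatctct
hsp-3 (chrX:6092116-6092216): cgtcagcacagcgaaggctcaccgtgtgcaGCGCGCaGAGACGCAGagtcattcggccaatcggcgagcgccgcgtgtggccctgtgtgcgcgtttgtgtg
The last set shows TGATAA near F16G10.6 and between H12C20.7 and nhr-68, the E-box in a non-coding RNA gene near letm-1, and the B box inside the tRNA gene F57F5.t1 and at the snoRNA gene C51F7.4. A GAGA repeat near bcat-1 and a GC box upstream of F31F7.1 complete it.
F16G10.6 (chrII:2378690-2378790): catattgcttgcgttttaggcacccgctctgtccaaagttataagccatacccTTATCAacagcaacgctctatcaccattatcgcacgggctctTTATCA
nhr-68 (chrV:11573000-11573100): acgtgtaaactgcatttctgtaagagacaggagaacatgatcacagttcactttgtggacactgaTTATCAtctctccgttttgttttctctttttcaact
letm-1 (chrV:13658724-13658824): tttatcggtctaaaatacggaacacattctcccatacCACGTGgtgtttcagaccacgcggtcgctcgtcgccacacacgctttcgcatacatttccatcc
F57F5.t1 (chrV:12002200-12002300): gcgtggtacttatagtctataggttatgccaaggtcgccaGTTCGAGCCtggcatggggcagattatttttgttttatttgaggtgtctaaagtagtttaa
C51F7.4 (chrV:12303604-12303704): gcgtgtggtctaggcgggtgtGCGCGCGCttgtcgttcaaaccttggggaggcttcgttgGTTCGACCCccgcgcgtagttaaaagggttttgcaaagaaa
bcat-1 (chrX:12872409-12872509): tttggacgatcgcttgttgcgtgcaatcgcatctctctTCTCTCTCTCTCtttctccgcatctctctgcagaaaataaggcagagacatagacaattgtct
F31F7.1 (chrV:6276331-6276431): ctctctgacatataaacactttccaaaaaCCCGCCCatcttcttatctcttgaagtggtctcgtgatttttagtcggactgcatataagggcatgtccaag

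The values of the signal that chose the sites are given as a description, with no test. The pooled signal of the 438 shared sites had a median of 171 (range 115.6 to 554.9), and that of the remaining peaks a median of 122.4 (range 110.1 to 264.6). Their signal in replicate 1 ran from 38.05 to 187.9 around a median of 51.51. In replicate 2 it ran from 80.54 to 390.0 around a median of 119.2. The scales of the 2 lists differ, so replicates were compared by rank. The median rank was 281.5 in replicate 1 and 276.5 in replicate 2. A total of 230 sites ranked better in replicate 1 and 207 in replicate 2, and in 239 sites the ranks were within a factor of 2. The replicate summits lay a median of 28 bp apart (185 sites within 20 bp, 314 within 50 bp and 14 more than 100 bp).

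**Figure D1:**
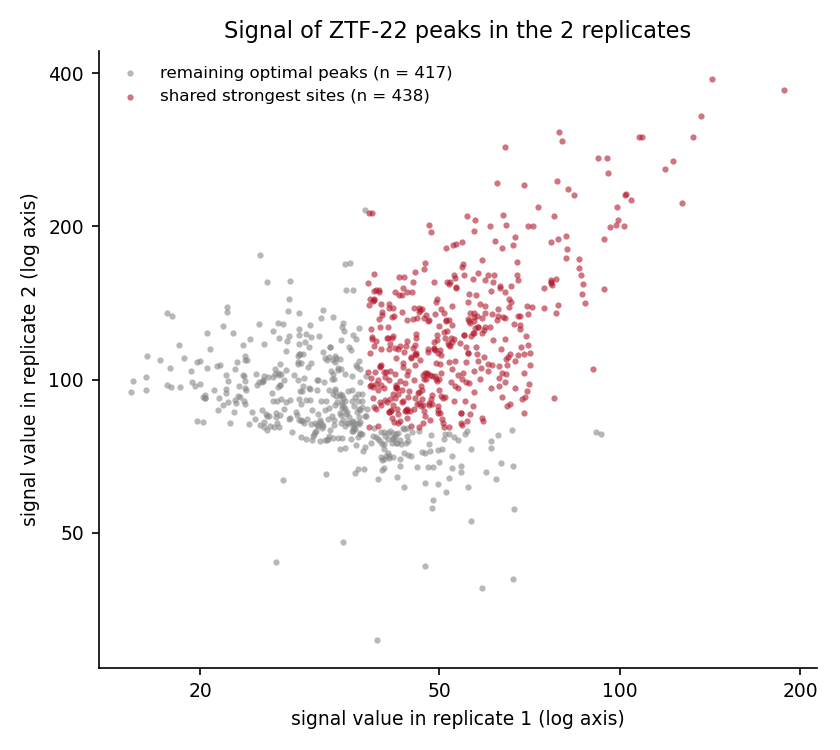
Signal value of each optimal peak in replicate 1 (horizontal, log axis) and replicate 2 (vertical, log axis), for the 438 shared sites (red) and the 417 remaining peaks with a region in both lists (grey). The straight edges of the red cloud are the limits of the strongest regions of each replicate, and few sites stand apart at the upper right.

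The pooled rank is described next. It is no independent measure, since the pooled signal rests on the same reads as the replicate signals that chose the sites, so nothing is read from its relation to sharing. The 10 strongest pooled peaks were all shared, as were 98 of the first 100. In 8 successive bins of equal size by pooled rank, 115, 110, 84, 66, 40, 19, 4 and 0 were shared sites. Of the other optimal peaks, 348 (36.6%, exact 95% interval 33.5 to 39.7) matched a strong region in replicate 2 only, 113 (11.9%, 9.88 to 14.1) in replicate 1 only and 53 (5.57%, 4.2 to 7.22) in neither. The intervals cover counting error only. Among the strongest regions of replicate 1, 434 matched one of replicate 2, and 426 of these lay at an optimal peak.

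**Figure D2:**
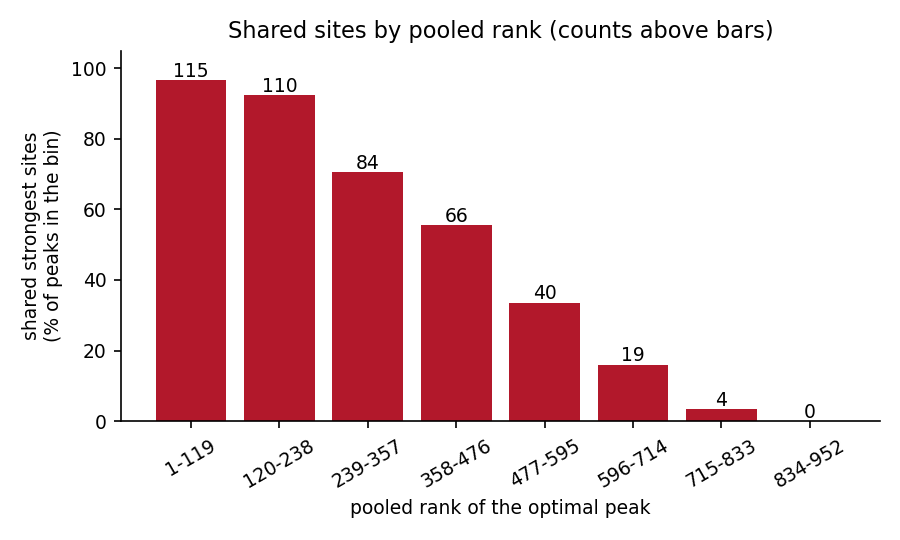
Share of optimal peaks that were shared strongest sites, a description of the selection (vertical, percent, bars from 0) in 8 bins of equal size by pooled rank (horizontal), with the count above each bar. The share falls from 96.6% in the first bin to 0.0% in the last.

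The top of the list was held by a small group of sites with high values in both libraries. At rpl-3, a gene of the large ribosomal subunit, the signal was 187.9 in replicate 1 (rank 1) and 370.5 in replicate 2 (rank 2). At tasp-1, whose product is related to the protease taspase, the signal was 142.4 (rank 2) and 390.0 (rank 1). The intergenic site 889 bp upstream of F16G10.6 had 136.4 and 329.8, rank 3 in both. These 3 sites exceeded every other peak in both replicates. A site in an intron of pqn-41 followed, with 132.7 in replicate 1 (rank 4) and rank 5 in replicate 2. One in an intron of pkg-2, which encodes a cGMP-dependent protein kinase, had 122.8 in replicate 1 and 268.7 in replicate 2. In all, 6 sites ranked in the top 10 of both replicates, 29 in the top 50 and 48 in the top 100.

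At the edges of the rule the values were close together. The shared sites nearest to the limit were the promoter between lin-35, the worm retinoblastoma gene, and vps-51 (ranks 946 and 439 in replicates 1 and 2), an intron of fkh-7 (296 and 947) and an intron of ppfr-1 (273 and 950). Just outside were the promoter of C07H6.2 and cux-7 (507 and 954), an intron of F45E1.4 (957 and 723) and an intron of saeg-1 (540 and 958). Only 2 of the 100 strongest pooled peaks were not shared. One, in an intron of mom-1 on the X chromosome at position 6296620, ranked 975 in replicate 1 and 27 in replicate 2. The other, on chromosome IV at position 8795255 near C33D9.3, had no region within 100 bp in replicate 1 and ranked 58 in replicate 2.

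Some shared sites stood far up in 1 list and lower in the other, within the limits that the rule sets. The site at position 9383196 of chromosome I, in an intron of ppfr-1, had 38.19 in replicate 1 and 212.8 in replicate 2, and one in an intron of fkh-7 had 38.6 and 212.8. In the opposite direction, the site next to the tRNA gene M02F4.t1 on the X chromosome had 90.41 in replicate 1 (rank 25) and 104.9 in replicate 2 (rank 423). These 3 sites were chosen after their values were seen.

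Some genes held several shared sites. In 5 protein-coding genes 3 summits lay within the gene, namely pqn-41, zfp-1, ppfr-1, Y43F8B.2 and pkg-2, and 8 more genes held 2. All 3 were intronic in each of these 5 genes except Y43F8B.2, where 1 lay in a promoter window. At zfp-1, whose product is a chromatin protein with a PHD finger, the 3 summits at positions 8802093, 8797499 and 8795869 of chromosome III ranked 43, 177 and 534 in the pooled list. At pkg-2, on chromosome IV, the strongest of the 3 ranked 7 and the next 66. Clusters were otherwise uncommon: 20 of the 438 sites had another shared site within 1000 bp and 95 within 10000 bp.

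Near the tagged gene itself, 3 shared sites and 2 remaining peaks lay within 25 kb of ztf-22 on chromosome II, and no optimal peak lay within 25 kb of unc-119. The 3 shared sites were at positions 13298722 (signal 64.43 in replicate 1 and 287.1 in replicate 2), 13299644 (57.4 and 205.8) and 13304561 (58.9 and 83.95). The first and second lie in Y48C3A.5 and the third near faxc-2. Reads of transgene and chromosome cannot be told apart there. Leaving out all peaks within 25 kb turned no direction and changed no call of the shares compared below.

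At protein-coding genes, the shared sites included the promoters of many genes for ribosomes, the endoplasmic reticulum and chaperones. A gene was counted when a summit lay from 500 bp upstream to 200 bp downstream of one of its transcript starts. This held for 186 of 19973 protein-coding genes with a shared site (0.931%) and for 200 with a remaining peak (1.00%). A summit in the windows of several genes was counted for each of them, whichever start was nearer. Some of these sites are also counted below near non-coding genes, such as those of gst-27, sdha-1, clec-126 and ins-7. The gene lists were chosen with earlier results of these data known, so their counts are descriptions and no test was made.

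Of 82 genes for cytosolic ribosomal proteins, 10 (12.2%) had a shared site and 1, rpl-11.2, had a remaining peak. The strongest after rpl-3 were rpl-15, with signal values of 107.8 in replicate 1 and 299.2 in replicate 2, rpl-20, with 102.6 and 231.7, and rpl-35, with 63.93 and 210.6. The others were rps-19, rps-1, rpl-12, rps-28, rps-12 and rpl-7A, which all ranked 499 or better in replicate 1 and 682 or better in replicate 2. All 10 summits but that of rpl-12 were upstream of the start, at 62 to 425 bp, and that of rpl-12 lay 6 bp downstream. At rpl-12 the summit was also 399 bp upstream of lin-54, a DNA-binding subunit of the DREAM complex. The summits of rpl-20, rps-19 and rps-12 lay nearer to the starts of Y17G9B.5, hsr-9 and ska-3. The site of rpl-11.2 ranked 1380 in replicate 1 and 669 in replicate 2. Of 42 translation factor genes, 3 (7.14%) had a shared site: iff-2 (67.02 and 190.5), the worm eIF5A, drr-2 (63.62 and 181.6) and eef-1A.2 (68.13 and 128.1), which encodes elongation factor 1 alpha. Another translation factor gene, eif-3.C, had a remaining peak. None of 32 aminoacyl-tRNA synthetase genes had a shared site, and 2 had a remaining peak.

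Genes for entry and folding of proteins in the endoplasmic reticulum were divided between shared sites and remaining peaks. Of the 6 genes with a remaining peak, all but pdi-6 were among the strongest regions in replicate 2 only. This held for 348 of all 514 remaining peaks as well, so it is not read as a trait of these genes. Of 17 translocon genes, 4 (23.5%) had a shared site. They were sec-61.G, a channel subunit, with 102.2 in replicate 1 and 230.3 in replicate 2, serp-1.1 with 69.36 and 240.8, and the divergent pair trap-3 and sec-61.B, which share 1 summit with 76.86 and 185.9. Another 3 (17.6%), trap-2, trap-1 and dad-1, had a remaining peak, strong in replicate 2 only: trap-2 and trap-1 ranked 296 and 537 there and had no region within 100 bp in replicate 1. Of 13 chaperone genes, hsp-3, which encodes a BiP protein, had 76.92 and 154.8, and dnj-20 had 49.63 and 122.1. The remaining peaks of enpl-1 and crt-1, the worm GRP94 and calreticulin, ranked 292 and 387 in replicate 2 but 17006 and 13846 in replicate 1. Both shared sites of the unfolded protein response list were strong, cdc-48.1 with 98.47 and 201.0 and xbp-1, the transcription factor of that response, with 60.7 and 200.4. No gene of that list of 17 had a remaining peak.

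Of 26 cytosolic heat shock genes, 4 (15.4%) had a shared site and none a remaining peak. The HSP70 genes F44E5.4 and F44E5.5 share 1 summit between them, with 77.7 in replicate 1 and 209.7 in replicate 2. The sites of hsp-90 (61.48 and 119.3) and cct-8, a subunit of the CCT chaperonin (47.44 and 102.9), were weaker. These summits lay nearer to the starts of C47E8.4 and Y55F3AR.2. Of 51 genes for oxidative phosphorylation, 4 (7.84%) had one: sdha-1, cox-5B, cox-5A and mev-1, with signal values of 45.42 to 57.85 in replicate 1 and 102.0 to 138.0 in replicate 2. Another 2 (3.92%), atp-1 and atp-3, had a remaining peak. None of 20 V-ATPase, 31 proteasome or 66 mitochondrial ribosome genes had either kind of peak, beside 0.931% and 1.00% of all protein-coding genes. Nothing is read from zeros in lists this short.

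Among genes of the intestine and for yolk proteins, 3 had a shared site, beside 0.931% of all protein-coding genes. Of 32 intestinal genes, 3 (9.38%) had a shared site: cpr-3, a cathepsin B-like protease gene (43.67 in replicate 1 and 159.1 in replicate 2), elt-2, the main GATA factor of the intestine (70.43 and 134.4), and pept-1, a peptide transporter gene (49.18 and 101.5). Another 6 (18.8%) had a remaining peak. Of these, cpr-4, cpr-6, cpr-1 and spp-5 were among the strongest regions of replicate 2 only, with ranks of 161 to 391 there and, where replicate 1 had a region, 1807 to 3727. In contrast, act-5 was among the strongest of replicate 1 only (ranks 567 and 1463 in replicates 1 and 2), and asp-4 of neither (5164 and 981). Of 6 vitellogenin genes, which encode yolk proteins, none had a shared site and 4 had a remaining peak: vit-5, vit-3, vit-2 and vit-6 ranked 289, 437, 662 and 778 in replicate 2. Their ranks in replicate 1, in the same order, were 3088, 1770, 1093 and 4533. Of all 514 remaining peaks, 348 were among the strongest regions of replicate 2 only. That pattern is therefore not read as a trait of intestinal or yolk genes. The vitellogenin list was singled out after its values were seen, and vit-3 and vit-5 belong to a family of similar genes, so how their reads were assigned is uncertain.

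**Figure D3:**
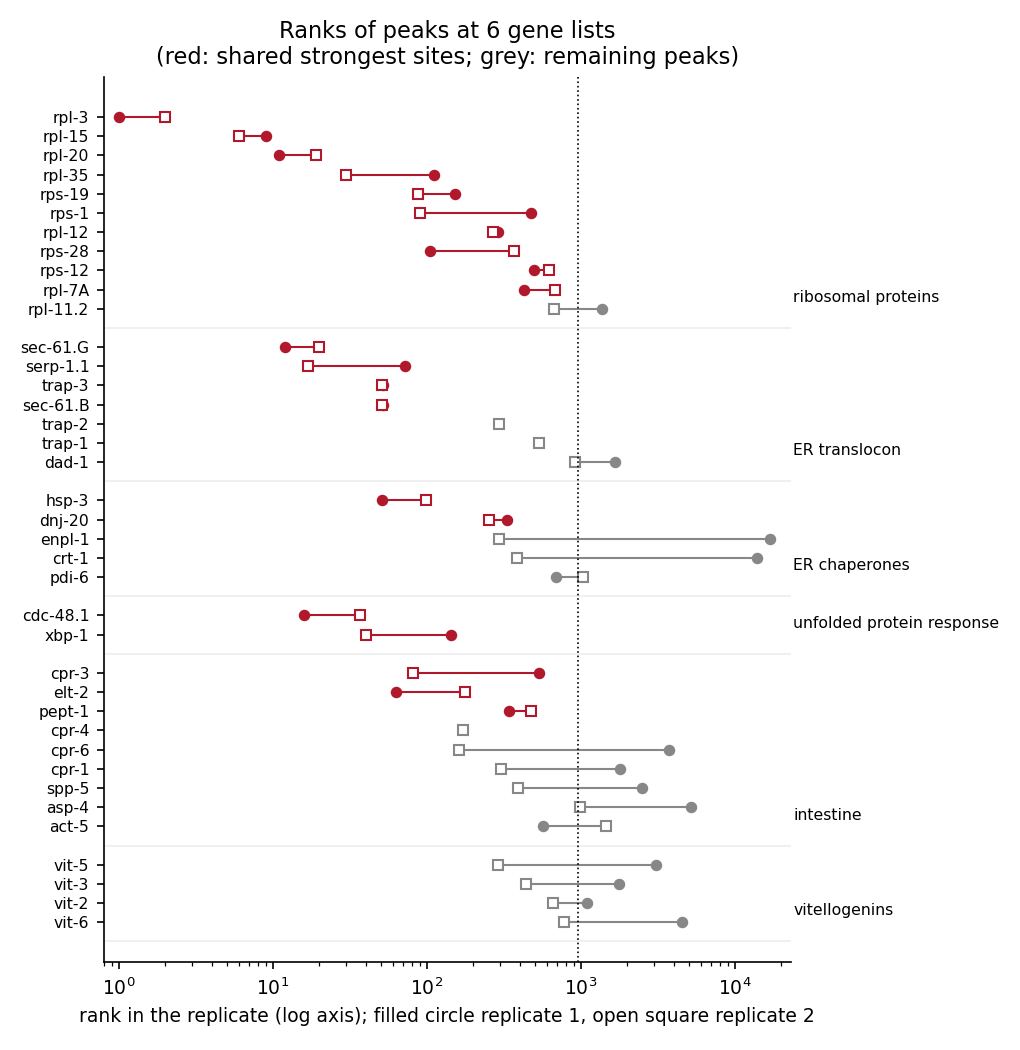
Rank in replicate 1 (filled circles) and replicate 2 (open squares) on a log axis for each gene with a peak in 6 lists, shared sites in red and remaining peaks in grey; a missing circle means that replicate 1 had no region within 100 bp, and the dotted line marks the limit of the strongest regions. Ribosomal protein genes lie mostly left of the line in both replicates, and the 4 vitellogenin genes only in replicate 2.

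Lists of regulatory genes and several others each had a shared site at 4 genes or fewer. Of 269 nuclear hormone receptor genes, 4 (1.49%) had one, nhr-68 (99.27 in replicate 1 and 205.7 in replicate 2), nhr-35 (59.63 and 139.4), nhr-1 (44.38 and 104.1) and nhr-49 (39.8 and 106.4). In worms nhr-49 controls fat metabolism and the response to starvation. In 8 DREAM complex genes, 2 had one, lin-54 (51.13 and 120.4) and lin-35 (38.05 and 103.6). Single genes were puf-9 of 10 in the Pumilio family of RNA-binding repressors (94.34 and 189.3), ztf-7 of 25 ztf genes (55.71 and 209.8), mdl-1, a Mad-like factor, of 32 bHLH genes (52.37 and 98.88), and fat-4 of 7 fatty acid desaturase genes (61.57 and 155.6). Of 26 bZIP genes, xbp-1 and zip-11 had one. Other lists held 1 gene each: unc-60 of 32 muscle genes (49.96 and 100.2), his-37 of 58 histone genes (48.18 and 201.2), ins-7 of 15 insulin pathway genes (38.34 and 97.33) and clec-126 of 237 lectin genes (46.72 and 88.69). The lectin share, 0.422%, is below the share of all protein-coding genes given above. Of 47 glutathione S-transferase genes, which act in detoxification, gst-27 (69.8 and 121.6) and gst-9 (43.67 and 113.3) had one. None of the 33 germ line genes, 26 neuronal genes, 179 genes of hypodermis and cuticle or 31 major sperm protein genes had a peak of either kind. Over all protein-coding genes the shares were 0.931% with a shared site and 1.00% with a remaining peak, so lists of such lengths can hold none. The lists are partial, and no absence from a tissue is read from these zeros. Of 1354 chemosensory receptor genes, 3 (0.222%) had a shared site: srh-2 (48.49 and 194.8), srz-62 (42.87 and 146.6) and srv-1 (49.22 and 114.3). Several of these lists had remaining peaks in similar number. They lay at 3 nuclear hormone receptor genes (1.12%), 2 bZIP, 2 lectin and 2 chemosensory receptor genes (0.148%). The DREAM gene lin-9, daf-16 of the insulin pathway and gst-1 had one each.

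Short non-coding genes lay close to a part of the shared sites. Within 500 bp of a gene of the class lay 29 tRNA (6.62%), 35 snoRNA (7.99%), 10 snRNA (2.28%) and 7 miRNA sites (1.6%). Of the pooled candidate regions that overlapped no optimal peak, 1.36%, 0.652%, 0.218% and 0.371% did, in the same order. Another 14 shared sites (3.2%) lay near piRNA genes and 110 (25.1%) near other non-coding RNA genes, against 2.18% and 9.64% of these candidate regions. The remaining peaks had similar shares, 3.11% near piRNA genes and 21.8% near other non-coding RNA genes, and 0.973% of them lay near miRNA genes. At snoRNA genes, whose products guide modification of other RNAs, 32 of 35 summits lay upstream of the gene, 3 inside it and 0 downstream, with 31 within 100 bp. Of the snRNA summits 6 of 10 lay upstream and 3 inside, and of the miRNA summits 6 of 7 lay upstream. At tRNA genes 19 of 29 lay inside the gene, 5 upstream and 5 downstream. Among the remaining peaks, 15 of 23 lay upstream of a snoRNA gene and 15 of 40 inside a tRNA gene. These positions were compared after they were seen, and no test was made.

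**Figure D4:**
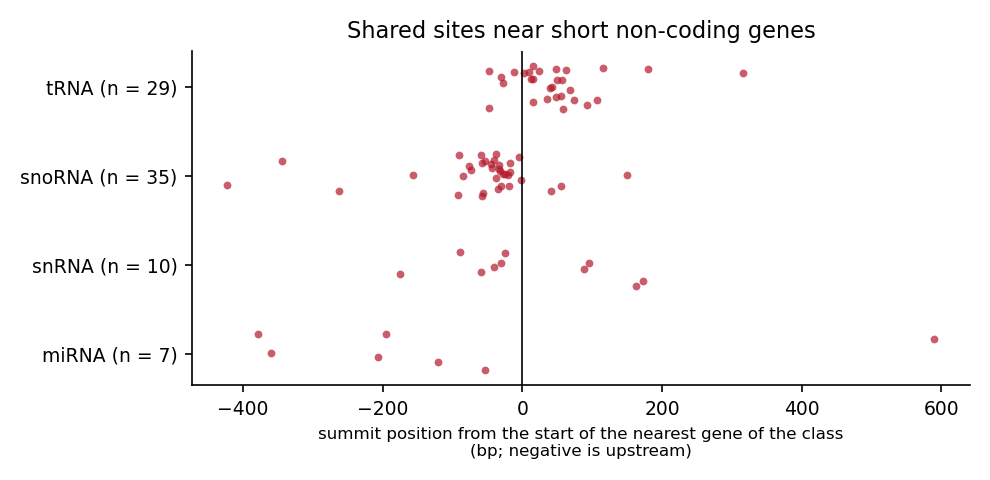
Position of each shared summit relative to the start of the nearest tRNA, snoRNA, snRNA or miRNA gene within 500 bp (horizontal, bp; negative is upstream; vertical scatter has no meaning). Of the 35 snoRNA summits 32 lie upstream of the start and 31 within 100 bp of the gene, and the 29 tRNA summits lie in and around the gene, which is short.

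The 3 strongest snoRNA sites lay in introns of protein-coding genes. The summit at ZK994.7, 2 bp upstream of the snoRNA gene inside an intron of pxn-1, had 95.16 in replicate 1 and 273.0 in replicate 2. At T03F7.8, inside cutl-18, it had 78.76 and 245.6, and at C51F7.4, inside frm-7, 71.75 and 200.5. The snRNA class was led by genes of the SL2 spliced leader RNA, which is spliced onto downstream genes of operons. Sites within 500 bp of sls-2.4 (127.1 and 222.2), sls-2.1 (104.5 and 225.7), sls-2.2 (62.82 and 133.1), sls-2.8, sls-2.3 and sls-2.15 made up 6 of the 10. The other 4 lay at sup-6, which held 2, R07E5.16 and ZK1251.14. A further strong site, at position 13463969 of chromosome I, lay at rpr-1, the gene of the RNase P RNA, inside an intron of ints-8, with 82.0 in replicate 1 and 236.9 in replicate 2. The miRNA sites with the highest signal lay upstream of cel-mir-4929 (53.38 and 184.9), cel-mir-80 (51.06 and 135.3) and cel-mir-53 (46.34 and 138.3). The 1 lincRNA site (0.228%) lay in linc-128 (92.05 and 272.6), beside 7 remaining peaks (1.36%) near lincRNA genes.

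Shares near non-coding genes were compared with those of the remaining peaks by two-sided Fisher's exact tests, adjusted by the Benjamini-Hochberg method over 7 classes. Sites are not replicates, and these p-values describe sampling of sites in 2 libraries. No class passed. The snoRNA share was 7.99% against 4.47% (odds ratio 1.85, 95% interval 1.05 to 3.34, adjusted exact p = 0.102), and the snRNA share 2.28% against 0.389% (odds ratio 5.97, 1.26 to 56.3, adjusted exact p = 0.102). The snoRNA difference passed with summits matched within 50 bp (odds ratio 2.42, adjusted exact p = 0.0054), within 200 bp (2.19, 0.0445) and with 50% as many strongest regions per replicate (2.33, 0.0201). It missed the threshold at every other alternative run. Among these, the ratio was 2.18 in the upper 50% of pooled ranks (adjusted exact p = 0.664) and 1.4 in the lower 50% (0.823). With 200% as many strongest regions it was 1.3 (0.549), and against peaks matched in exactly 1 replicate 1.73 (0.163). The tRNA share was 6.62% against 7.78% (odds ratio 0.84, 0.493 to 1.42, adjusted exact p = 0.621). With a match required in replicate 2 alone it was 0.417 (adjusted exact p = 0.0177), and in replicate 1 alone it was 1.4. Its direction thus differed between these 2 alternatives, and the optimal peaks themselves came from both replicates in each case. With both replicates matched the ratio also turned, to 1.2 in the upper and 1.35 in the lower 50% of pooled ranks. With 200% as many strongest regions it was 1.53. The cause of these changes was not tested. Of the tRNA sites 19 were on the X chromosome, and 20 of 29 ranked better in replicate 1. Repeated sequence touched this class: 18 shared sites had at least 50% of their 36-base words more than once in the genome, and 12 of these were near tRNA genes, so reads could be shared between copies.

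The position of shared and remaining peaks relative to protein-coding genes did not differ past the threshold. Of 438 shared summits, 161 (36.8%) lay in promoter windows against 179 of 514 (34.8%), with an odds ratio of 1.09 (0.826 to 1.43, Fisher's exact test, adjusted exact p = 0.759 over 7 classes). Introns held 19.2% and 19.1%, and intergenic sequence 32.4% and 33.9%. Coding exons held 3.2% of shared summits and 6.42% of remaining summits (odds ratio 0.482, 0.235 to 0.94, adjusted exact p = 0.169). Among the candidate regions of the pooled list that overlapped no optimal peak, 20.3% were in promoter windows and 30.9% in coding exons. Within promoters, 143 of 161 shared summits lay before the nearest start, and the median offset of the 161 was -181 bp, and 25 (15.5%) stood between 2 divergent starts. Of the remaining promoter peaks, 154 of 179 were upstream, at a median offset of -130, and 20 (11.2%) were divergent.

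By chromosome, the X held the most shared sites for its length, 6.32 per Mb, and chromosome I the fewest, 2.99 per Mb. The others had 3.68 to 4.84. Of all optimal peaks, 38.1% on chromosome I and 50.8% on chromosome III were shared. The X held 112 shared (25.6%) and 138 remaining peaks (26.8%), an odds ratio of 0.936 (0.693 to 1.26, Fisher's exact test, adjusted exact p = 0.658 over 2 tests). On the X the sites with the highest pooled signal were intergenic near bcat-1 (80.12 in replicate 1 and 294.3 in replicate 2) and nspc-17 (99.05 and 218.6), upstream of serp-1.1, and intergenic near K02D3.1 (101.7 and 200.5) and W02H3.3 (96.43 and 199.6). The middle 50% of the autosomes held 62.0% of autosomal shared sites and 64.6% of remaining peaks (adjusted exact p = 0.658).

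Sequence at the shared summits differed from the sequence beside them. For each of 22 motifs, the bases within 50 bp of the summit were compared with windows of the same length centred 250 bp to either side, on both strands, by exact McNemar tests, taking the larger p of the 2 sides and adjusting over the 22. The motifs were chosen with earlier results of these peaks known, so the p-values are not independent evidence of an excess. The 7 motifs printed above passed with more matches at the summit and 1, TTTTTTTT, with fewer. For CTGCGTCTC, a word noted in these peaks, no p is given for this comparison. The base composition of the same windows differed as well, with a median GC of 47.5% at shared summits and 35.2% in the flanks, and its part in these counts was not tested. A match is a description of the letters in the window, not a binding site.

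CTGCGTCTC occurred at 35 shared summits (7.99%) and at 2 in each flank, against 1.23% of candidate regions outside optimal peaks in windows of the same length. Matches lay a median of 22 bp from the summit, with 13 in promoter windows, 8 in introns and 12 in intergenic sequence. Besides the examples printed above they were found at F44E5.4 and F44E5.5, at drr-2 and set-16 and in an intron of zfp-1. TGATAA occurred at 85 summits (19.4%), 48 lower and 47 upper flanks (adjusted exact p = 0.00263) and in 9.15% of candidate regions. Its matches were not densest at the summit itself, with 34 at -80 to -60 bp, 23 at -20 to 0 bp and 27 at 0 to 20 bp. CACGTG, the E-box of basic helix-loop-helix factors, occurred at 45 summits (10.3%), 8 lower and 9 upper flanks (adjusted exact p = 8e-06), and in 2.97% of candidate regions, with 11 of the 45 in promoter windows and 17 intergenic. Beside mdl-1, which encodes such a factor, 2 shared sites on the X chromosome carried it. That at position 6742260 lay upstream of the start, and that at 6743997 past the annotated end of the gene at 6743899.

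The B box word GTTCGANNC occurred at 24 shared summits (5.48%), 5 lower and 2 upper flanks (adjusted exact p = 0.00137). Of the 24, 15 lay near a tRNA gene and 7 near a snoRNA gene. The GC box GGGCGGG occurred at 10 summits and 1 flank on each side (adjusted exact p = 0.0322), 9 of them in promoter windows. GAGAGAGA occurred at 26 summits, 4 lower and 10 upper flanks (adjusted exact p = 0.022). Its matches were densest between these windows, where long repeats count more than once. There were 46 at -120 to -100 bp and 30 at 80 to 100 bp, against 13 at -20 to 0 bp and 21 at 0 to 20 bp. GCGCGC occurred at 36 summits (8.22%), 7 lower and 4 upper flanks (adjusted exact p = 4.9e-05), 20 of them in promoter windows, among them tasp-1, hsp-3, rpl-7A and rps-12. TTTTTTTT occurred at 14 summits, 64 lower and 52 upper flanks (adjusted exact p = 8.9e-06). In total 217 of the 438 shared summits (49.5%) carried at least 1 of the 7 motifs, 40 carried 2 or more and 221 none. CTGCGTCTC and CACGTG occurred together at 6 sites, CACGTG and GCGCGC at 6, CTGCGTCTC and GCGCGC at 4, and CTGCGTCTC and TGATAA at 1.

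**Figure D5:**
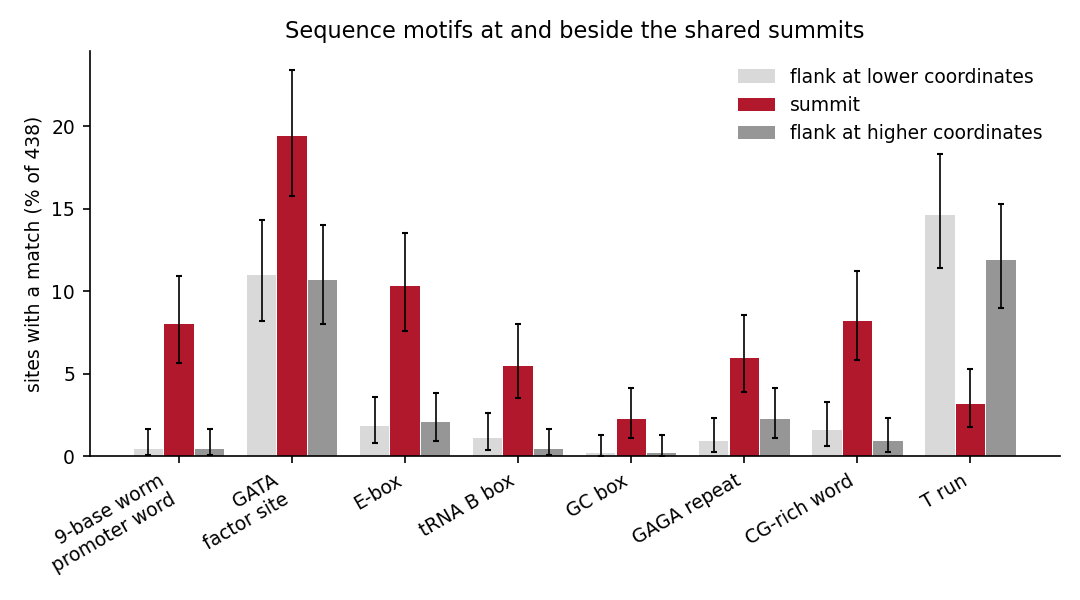
Share of the 438 shared sites with a motif match (vertical, percent, bars from 0) at the summit (red) and in the flank on either side (greys), with exact 95% binomial intervals. The 9-base worm promoter word is CTGCGTCTC and the CG-rich word is GCGCGC. Of the windows shown, that at the summit has the highest share for 7 motifs and the lowest for the T run. Sequence between the windows is not shown.

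The remaining peaks carried the same motifs, and all but 1 of the 22 shares did not differ past the threshold. At least 1 of the 7 occurred at 222 of 514 remaining summits (43.2%). TGATAA occurred at 23.9% of remaining summits, CACGTG at 7.2% and CTGCGTCTC at 5.06%, and none of these differences from the shared sites passed Fisher's exact test adjusted over 22 motifs (adjusted exact p = 0.288 for each). For CTGCGTCTC the odds ratio was 1.63 (0.935 to 2.87), with 4.77 (1.18 to 41.7) in the upper 50% of pooled ranks and 0.532 in the lower 50%. Only GCGCGC passed, at 8.22% of shared and 3.31% of remaining summits, with an odds ratio of 2.62 (1.41 to 5.04, adjusted exact p = 0.0231). The difference missed the threshold when a match was required in 1 replicate only. The odds ratio was 2.69 with replicate 2 alone (adjusted exact p = 0.666) and 1.73 with replicate 1 alone (0.491), and the optimal peaks still came from both. It also missed the threshold within the upper 50% of pooled ranks (2.18, adjusted exact p = 0.863) and the lower 50% (2.65, 0.827). The GC content of shared summits was also higher than that of remaining summits, with medians of 47.5% and 44.6%, and its part in this difference was not tested.

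A search that did not start from known motifs found related words. The 20 words of 6 bases that exceeded their flanks most in the remaining peaks were carried to the shared sites, where 17 of 20 passed the exact McNemar test adjusted over the 20. The lowest adjusted exact p values belonged to AGAGAC (74 summits against 15 lower and 19 upper flanks, adjusted exact p = 2.3e-08), ACGCAG (64 against 15 and 11, 4.8e-08), GACGCA (58 against 12 and 11, 5e-08) and CGTCTC (62 against 15 and 11, 6.7e-08). The last 3 are parts of CTGCGTCTC or of its reverse complement, and AGAGAC shares its last 5 letters with the start of that complement. As CTGCGTCTC was noted in these peaks, the p-values of its parts are not independent evidence. Many of the 20 words overlap, such as GAGAGA and AGAGAG, so the 17 are not separate results. The words were chosen in peaks of the same 2 libraries. The part of the GC difference between summits and flanks was not tested here either. The 3 words that did not pass were CCTCTC (29 against 13 and 20, adjusted exact p = 0.253), CTCTCC (35 against 23 and 22, 0.148) and GAGAGC (33 against 20 and 16, 0.102). All 10 of the words most in excess at the shared summits were among the 20 chosen in the remaining peaks.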

How the data were processed

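Chromatin immunoprecipitation and sequencing of ZTF-22-EGFP was done in 2 biological replicates of 1 line. The authors deposited lists of 30000 candidate regions for each replicate and for the pooled reads, and 952 optimal peaks kept after comparing replicates by the irreproducible discovery rate, all on ce11. Each region has a signal value from the authors' caller, comparable within a list only, and a deposited -log10 q value; the highest q among the shared sites was 0.00671. The caller, aligner and threshold, like the read filters, were not given in the sources used here. Depth is unknown, so intervals cover the counting of sites only. The optimal peaks equal the 952 pooled regions of highest signal.

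Positions are counted from 1. Genes came from Ensembl release 115 (WBcel235). RefSeq gave names missing there, and 20 genes stayed unnamed. Each summit took the first class that held it: promoter window, then 5' UTR, then coding exon, then 3' UTR, then intron, then non-coding gene, else intergenic. Shared and remaining peaks were compared by Fisher's exact test (two-sided), summits and flanks with exact McNemar tests (scipy 1.17.1), both with Benjamini-Hochberg adjustment and a threshold of 0.05, and shares have exact Clopper-Pearson 95% intervals. The tests were checked on simulated data.

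The sites, gene lists and motifs were chosen with earlier results of these data known. Names were drawn from these sets: the 30 sites with the best worse rank, 3 on each side of the limit, up to 4 genes per list, 3 sites per non-coding class, 5 on X, unshared peaks of the top 100 and those within 25 kb of ztf-22 or unc-119. Not every site of these sets is described, for example those near tag-340 and sup-26. Other names were chosen after their values were seen. Alternatives varied the matching distance, the number of strongest regions, windows, rank ranges and the replicates in which a match was required. All alternatives for GCGCGC and the removal of repeated sequence were chosen after seeing the data.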

Additional observations from a re-analysis of the deposited data

How the results depend on the processing

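Of 120 alternatives for the shares compared, 96 kept their direction and their side of the threshold. The number of shared sites stayed within 1.5 times of 438 in 4 of 6 alternatives. It was 244 with 50% as many strongest regions per replicate, and 551 to 786 when matching 1 replicate alone. Among odds ratios of shared against remaining peaks, the promoter ratio turned to 0.981 with matching within 50 bp and to 0.876 with a window of 300 bp upstream and 100 bp downstream. In the upper 50% of pooled ranks the coding exon ratio turned to 1.63 and the tRNA ratio to 1.2. In the lower 50% of ranks the intron ratio turned to 0.908, the CTGCGTCTC ratio to 0.532 and the tRNA ratio to 1.35. In the upper 50% the CTGCGTCTC ratio was 4.77 (1.18 to 41.7, exact adjusted p = 0.239). With 200% as many regions the tRNA ratio was 1.53. The snoRNA ratio passed the threshold at 2.42 (50 bp), 2.19 (200 bp) and 2.33 (50% as many regions). It missed the threshold at all others, among them 1.3 (200% as many regions), 2.18 (upper 50% of ranks) and 1.4 (lower 50% of ranks).

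Some alternatives required a match in 1 replicate only, while the optimal peaks still came from both. There the intron ratio ran from 0.988 to 1.02, the X ratio from 0.844 to 1.41 and the autosome centre ratio from 0.766 to 1.22. The tRNA ratio ran from 0.417 to 1.4 and the GCGCGC ratio from 1.73 to 2.69. GCGCGC also missed the threshold at 2.48 (200 bp), 1.67 (50% as many regions), 2.17 (200% as many), 2.18 (upper 50% of ranks), 2.65 (lower 50% of ranks) and 2.32 (30 bp windows). It passed at the other alternatives run. The cause of these changes was not tested, and the alternatives with fewer sites also have less power. Removing peaks of repeated sequence, or those near ztf-22 and unc-119, changed no call or direction. No paired analysis was possible because the 2 replicates belong to 1 group. With depth unknown, a region absent from the list of replicate 1 cannot be read as an unbound site.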

Other observations

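In the summit sequences of rpl-15, tasp-1 and rpl-20 the word ATACACT recurs, and in those of rpl-3 and tasp-1 the word ACACTCCG. Both words were read from the sequences after these were seen, so the counts are a description with no test. On either strand, ATACACT occurred within 50 bp of 15 of 438 shared summits, in 1 lower and 4 upper flanks, and at 5 of 514 remaining summits, where 8 lower and 3 upper flanks held it. The 15 included the sites of tasp-1, rpl-15, rpl-20, rpl-35, rps-1, epg-9 and cox-5B. ACACTCCG occurred at 7 shared summits, with 2 lower and 0 upper flanks, and at 2 remaining summits. The 7 included rpl-3, tasp-1, rps-1 and ncl-1, which encodes a repressor of nucleolar size and ribosomal RNA synthesis.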
